A study of Mus musculus with 27 samples.

Results

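The genes described here are 10 immediate early genes of the mouse: Fos, Fosb, Jun, Junb, Egr1, Ier2, Arc, Npas4, Nr4a1 and Dusp1. They were taken from the 45195 genes of a table of raw counts, as the entries whose Ensembl ID carries one of these symbols in the GRCm38.p6 annotation. All 10 were found, each as 1 entry, and all 10 passed the filter on low counts in every fit used below. The comparison of interest is between kinds of library, since some came from dissociated and sorted cells and others from homogenised tissue.

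Immediate early genes are transcribed within minutes of a stimulus, because the transcription factors that start them, such as SRF with its TCF partners and CREB, are already present in the resting cell and only need to be activated by kinases. Their mRNAs are short-lived, so their levels follow recent signalling. In neurons they are known as markers of synaptic activity, and in many cell types they are also induced by handling, enzymatic digestion and heat.

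The study profiled neurogenesis in adult male mice at 4 stages. In the subventricular zone (SVZ) these were neural stem cells, called NSC, and early neuroblasts, called ENB. In the olfactory bulb (OB) they were late neuroblasts, called LNB, and neurons, called Neuron. All mice were 8 to 12 weeks old, on a C57BL/6 background, and were given tamoxifen at 200 mg per kg by gavage. They carried Tlx-CreER or Dcx-CreER, an inducible recombinase under a stem cell or a neuroblast promoter, with an eYFP reporter and with Rpl22.HA, the RiboTag allele that puts an HA tag on a ribosomal protein of recombined cells. The names in the labels point to the Tlx line for NSC and to the Dcx line for ENB and LNB. Ribosome-bound mRNA (2 libraries for NSC, 2 for ENB, 3 for LNB and 2 for Neuron) was precipitated with an anti-HA antibody from homogenised tissue in the presence of cycloheximide, without sorting. Total mRNA (3 libraries per stage) came from 200 to 500 eYFP-positive cells sorted after digestion with trypsin and DNase, from the tissue of 1 to 2 mice. The no-HA controls (3 libraries from SVZ and 3 from OB) went through the same precipitation from tissue without the tag and hold the unspecific background of the homogenate. All libraries were polyadenylated mRNA amplified by Smart-seq2. For the 2 Neuron ribosome-bound libraries the titles decided the group, while another label of theirs names total mRNA and describes sorting.

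The library totals were 6325479 to 13316334 counts in ribosome-bound mRNA, 5225929 to 15994635 in total mRNA and 5960357 to 9120659 in the controls. The summed level of 6 markers of bulb interneurons was 14533 to 15095 CPM (counts scaled to library size with TMM factors) in Neuron ribosome-bound mRNA and 5819 to 10002 CPM in Neuron total mRNA, and 6 neuroblast markers summed to 8105 to 8449 CPM in ENB total mRNA. In ENB ribosome-bound mRNA the neuroblast markers summed to only 1246 to 2576 CPM, against 362 to 493 CPM in the SVZ control. In the same ENB precipitates 6 oligodendrocyte markers summed to 20715 to 21434 CPM. They summed to 1074 to 2650.5 CPM in ENB total mRNA and to 17769 to 22965 CPM in the SVZ control. In LNB total mRNA 6 astrocyte markers summed to 4074, 526 and 6204 CPM in replicates 1, 2 and 3. Replicates 1 and 3 thus stand apart from their label. Calls that rest on them are given with and without them, and levels and most fold changes of LNB only with them. In Neuron total mRNA the astrocyte markers summed to 401 to 2400.2 CPM and the oligodendrocyte markers to 1880.1 to 8378 CPM. In Neuron ribosome-bound mRNA they summed to 118 to 161 CPM and 512 to 878 CPM. The part of glial cells in the Neuron levels was not tested. The second index of the library barcodes differs with the kind of library: every total library carries one of a pair of indices that only 2 of 9 ribosome-bound libraries, both of Neuron, and 3 of 6 controls share. Sorting after dissociation, the RNA fraction, the cells captured and in large part the index therefore differ together between ribosome-bound and total mRNA and cannot be told apart. In these bulk libraries, fewer cells of a type and less RNA per cell cannot be told apart either.

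The promoters of 7 members stood in the RefSeq table of GRCm38.p6, each as 300 bases around the annotated start, most of them before it; those of Egr1, Ier2 and Arc are named only. Printed are Fos and Jun, which were higher in total mRNA of the SVZ stages, and Npas4 and Nr4a1, which were higher in ribosome-bound mRNA of the neuroblasts. They lie at chr12:85473640-85473939 (plus strand) for Fos, chr4:95052173-95052472 (minus strand) for Jun, chr19:4989922-4990221 (minus strand) for Npas4 and chr15:101266596-101266895 (plus strand) for Nr4a1. Each is written 5′ to 3′ along its gene, and capitals mark TGACG on either strand (CGTCA where it lies on the other), the shorter form of the cyclic AMP response element that CREB binds.
Fos: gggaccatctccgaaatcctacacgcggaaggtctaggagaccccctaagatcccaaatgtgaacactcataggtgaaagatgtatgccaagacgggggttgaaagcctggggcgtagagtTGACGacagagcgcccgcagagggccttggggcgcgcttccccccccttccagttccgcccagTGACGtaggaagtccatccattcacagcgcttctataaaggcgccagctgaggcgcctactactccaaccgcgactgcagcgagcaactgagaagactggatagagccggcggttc
Jun: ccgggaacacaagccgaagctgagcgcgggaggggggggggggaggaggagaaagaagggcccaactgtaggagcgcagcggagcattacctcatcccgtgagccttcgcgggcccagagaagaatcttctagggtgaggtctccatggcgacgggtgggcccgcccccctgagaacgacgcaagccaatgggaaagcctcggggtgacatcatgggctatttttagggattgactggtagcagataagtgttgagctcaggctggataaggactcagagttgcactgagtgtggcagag
Npas4: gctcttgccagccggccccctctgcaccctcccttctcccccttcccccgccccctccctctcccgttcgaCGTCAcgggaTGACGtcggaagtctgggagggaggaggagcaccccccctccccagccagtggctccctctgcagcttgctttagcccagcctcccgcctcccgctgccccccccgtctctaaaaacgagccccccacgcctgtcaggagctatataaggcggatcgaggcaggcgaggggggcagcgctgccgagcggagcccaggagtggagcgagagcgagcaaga
Nr4a1: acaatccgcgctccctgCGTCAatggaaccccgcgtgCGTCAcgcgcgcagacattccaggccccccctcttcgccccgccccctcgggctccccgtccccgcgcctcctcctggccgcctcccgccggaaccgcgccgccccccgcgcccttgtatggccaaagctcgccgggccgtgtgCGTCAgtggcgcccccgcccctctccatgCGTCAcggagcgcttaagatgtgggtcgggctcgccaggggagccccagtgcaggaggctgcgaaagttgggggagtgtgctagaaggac

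TGACG was found in 6 of the 7 promoters, against 20.8% of the 32851 promoters in the table, and Jun was the member without it. Nr4a1 held 4 matches, Dusp1 held 3, of which 2 overlap as the full element TGACGTCA, and Fos and Npas4 held 2 each. TGACGTCA was found in 1 of 7, against 1.79% of all promoters. The Sp1 site GGGCGG was found in 6 of 7, against 35.7%, and the letters TATAAA of the TATA box in 2 of 7, against 13.6%. In Fos they lie at positions -33 to -28 from the start, and in Junb at positions 1 to 6, after the start. The serum response element, the AP-1 site TGANTCA and the Egr site GCGTGGGCG had 0 matches in the 7 windows, against 1.63%, 7.81% and 0.612% of all promoters, on both strands. These matches describe the letters in the windows and were not tied to any level below.

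Ribosome-bound and total mRNA gave unlike pictures of the same 10 genes. In the SVZ stages Fos, Jun, Ier2, Egr1 and Dusp1 were lower in ribosome-bound than in total mRNA, with log2 fold changes from -1.25 for Dusp1 in ENB to -5.09 for Fos in NSC. In the neuroblasts Arc, Npas4 and Nr4a1 were higher in ribosome-bound mRNA, from 2.16 for Nr4a1 in ENB to 7.78 for Arc in LNB. Markers of mature neurons moved the same way in LNB: 6 markers of bulb interneurons summed to 8459 to 8749 CPM in ribosome-bound mRNA, against 539 to 1132 CPM in total mRNA, with 0 of the 6 at 0 in either, and 5 markers of mitral and other glutamatergic neurons to 433 to 446 CPM, against 55.7 to 169 CPM, where Tbx21 was at 0. Their part in the members' levels was not tested. Between ribosome-bound mRNA and the no-HA control of the same tissue no member was called. Tests used the quasi-likelihood test of edgeR with p-values adjusted after Benjamini and Hochberg over all genes tested, and a gene was called at an adjusted p under 0.05.

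**Figure D1:**
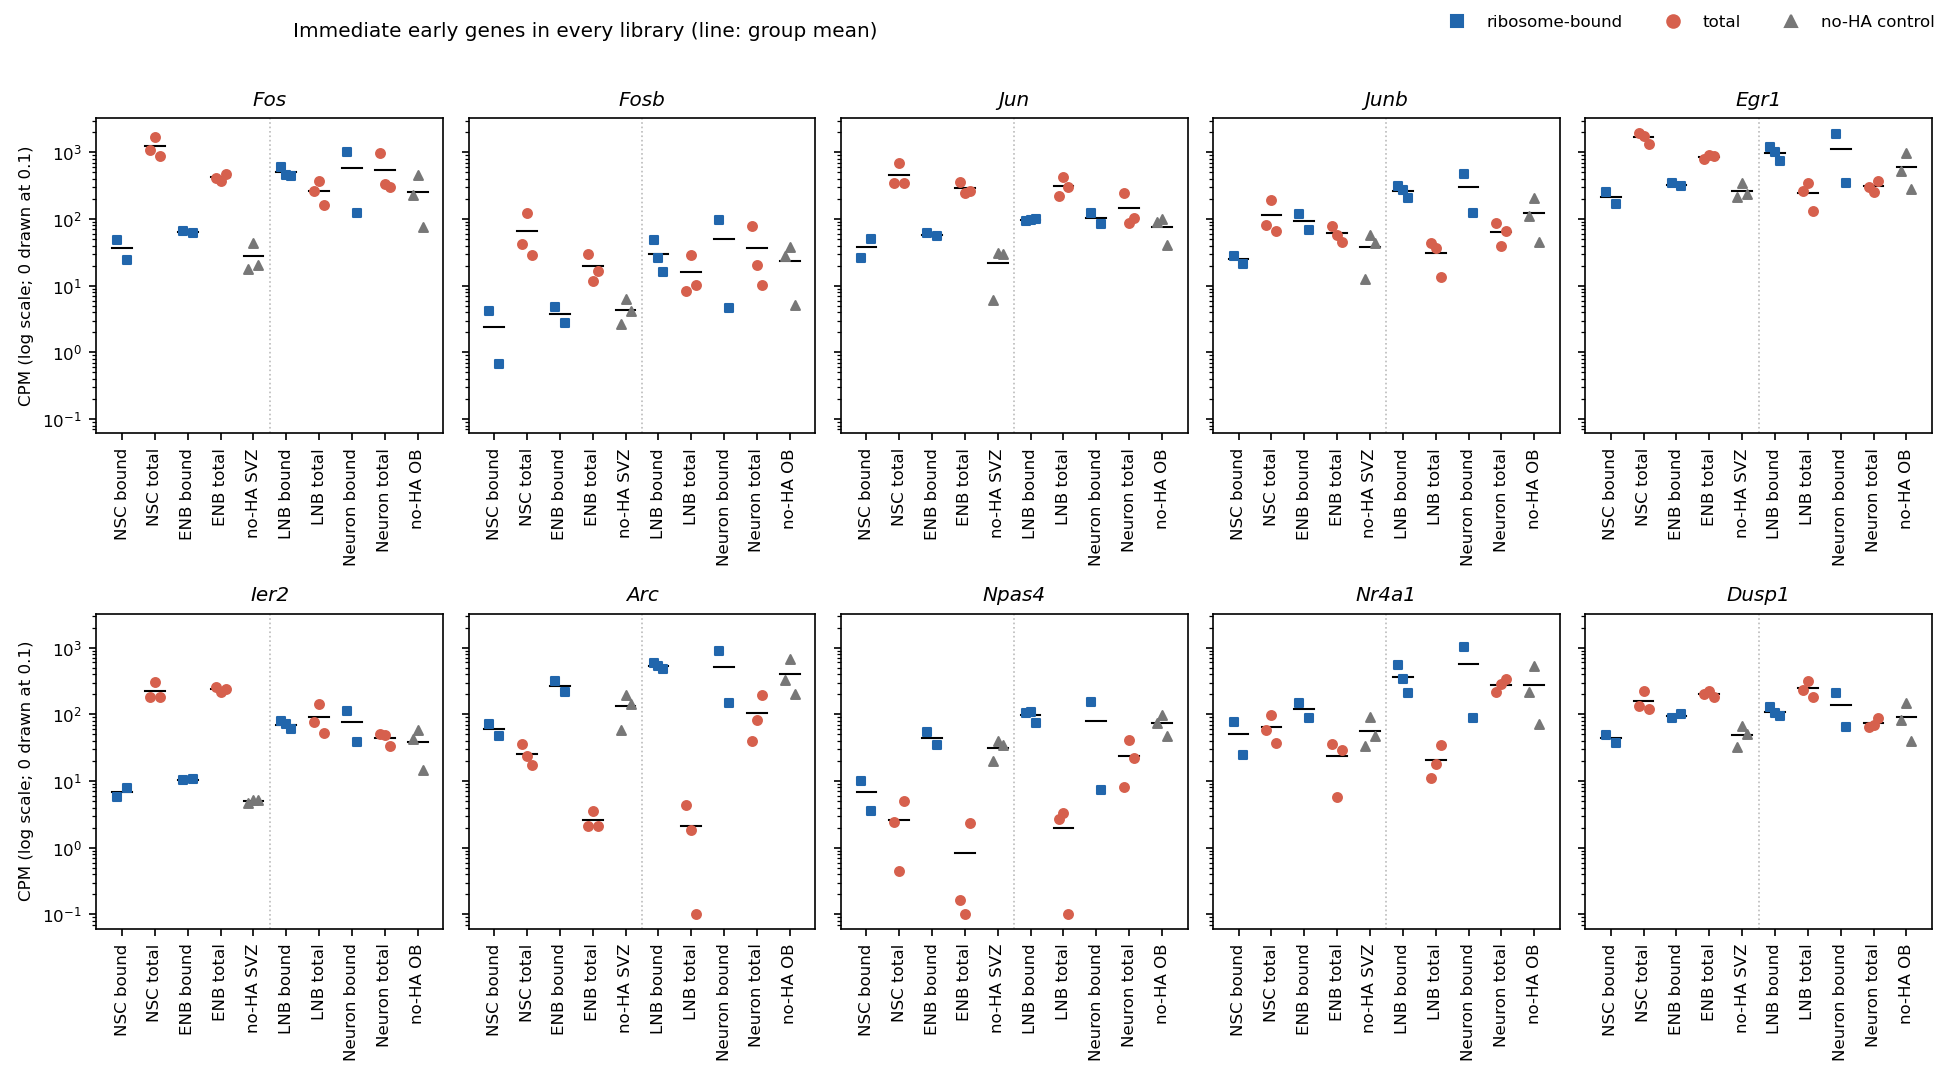
Level of each gene in every library (CPM, log axis, a value of 0 drawn at 0.1), with ribosome-bound mRNA marked bound, groups of the SVZ left and of the OB right of the dotted line and group means as bars. Fos, Jun and Ier2 of NSC and ENB are high in total libraries only, and Arc and Npas4 of ENB and LNB are low in total libraries only.

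Between ribosome-bound and total mRNA, 7 of 10 members were called in NSC, all lower, where 11.1% of all genes tested were called. In ENB 8 were called, 3 higher and 5 lower, against 30.2% of all genes. In LNB 7 were called, 5 higher and 2 lower, against 18.2%, and in Neuron 2 were called, both higher, against 9.15%. The median log2 fold change of the 10 members was -2.61 in NSC, -1.39 in ENB, 1.30 in LNB and 0.88 in Neuron, where the medians of all genes lay between -0.06 and 0.01. Averaged over the 4 stages, 9 members were called, against 37.3% of all genes: 4 were higher (19.0% of all genes were called higher) and 5 lower (18.3% were called lower). Egr1, lower in the SVZ stages and higher in the OB stages, was the member not called there. The calls of Fosb and Junb in this mean ended without 4 and 5 of the 21 libraries left out in turn, such as Neuron total replicate 1 for Fosb and Neuron ribosome-bound replicate 1 for Junb (adjusted p up to 0.0874 and 0.167). Whether the difference varied between stages was tested as an interaction, and 9 of 10 members were called, against 19.8% of all genes, with Npas4 at an adjusted p of 0.072. Of these, Fosb lost its call without NSC ribosome-bound replicate 2 (adjusted p = 0.0909), Jun without NSC or Neuron ribosome-bound replicate 1 (up to 0.0825), Dusp1 without Neuron ribosome-bound replicate 1 (0.188) and Nr4a1 without any 1 of 10 of the 21 libraries (up to 0.113).

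With the second index as a term in the same fits, 3 of the 7 NSC calls remained (Fos, Egr1 and Ier2), 4 of the 8 ENB calls (Fos, Ier2, Arc and Npas4), 1 of the 7 LNB calls (Arc) and both Neuron calls. The shares of all genes called were 2.53%, 15.6%, 3.79% and 9.81% in these fits. Several values that lost the call stayed about as large, among them Fosb (-4.58) and Dusp1 (-1.83) in NSC and Jun (-1.91) and Npas4 (4.73) in LNB. Dusp1 in LNB became larger (-1.94). Others became smaller, among them Jun (-2.41) and Junb (-1.14) in NSC, Jun in ENB (-1.67), and Egr1 (1.01) and Nr4a1 (2.52) in LNB. Averaged over stages, Fos, Jun, Ier2 and Arc kept their calls, and in the interaction Fos, Egr1, Ier2 and Arc did. No called value changed sign with this term. Within NSC, ENB and LNB no ribosome-bound library shares an index with a total library, so no value within an index can be given there. Leaving out LNB total replicates 1 and 3 leaves 1 library, assumed to vary like the other groups. Jun (log2 fold change -2.19) and Arc (8.09) then kept their LNB calls, and Junb, Egr1, Npas4, Nr4a1 and Dusp1 did not. In that setting Junb also lost its call in the mean over stages, and Fosb and Nr4a1 lost theirs in the interaction.

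Total mRNA was also set against the no-HA control of its tissue, which comes from homogenised tissue that was neither digested nor sorted. These comparisons share the total libraries with those above, and NSC and ENB share the SVZ control, so they are no independent evidence. In NSC 9 members were called, 7 higher and 2 lower, against 32.3% of all genes, and in ENB 7, 5 higher and 2 lower, against 40.2%. In LNB 7 were called, 3 higher and 4 lower, against 21.9%. In Neuron edgeR called 0 of 10, against 5.28% of all genes, with 2 at an unadjusted p under 0.05 (Jun and Arc) and 1 called by DESeq2 (Arc). With the second index as a term, 8 of the 9 NSC calls, all 7 ENB calls and 5 of the 7 LNB calls remained. The shares of all genes called with this term are not given for these comparisons, so the counts show only which calls remained. Without LNB total replicates 1 and 3, where 12.6% of all genes were called, 4 of the 7 LNB calls remained, namely Jun (log2 fold change 2.58), Ier2 (1.99), Arc (-7.63) and Dusp1 (1.92). In Neuron 1 member was called without Neuron total replicate 3, Arc (-2.72), against 4.83% of all genes. The median log2 fold change of the members was 2.28 in NSC, 2.02 in ENB, -0.81 in LNB and -0.10 in Neuron.

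Ribosome-bound mRNA was then set against the no-HA control, and no member passed the test. These comparisons share the ribosome-bound and control libraries with those above. edgeR called 0 of 10 in NSC, ENB, LNB and Neuron, where 15.3%, 1.52%, 10.1% and 27.4% of all genes were called. At an unadjusted p under 0.05 stood Npas4 in NSC, Jun in ENB, and Junb and Ier2 in both LNB and Neuron, and DESeq2 called 0 in each. A p that misses the threshold does not show that the levels were equal: the median log2 fold change of the members was -0.22 in NSC, 0.98 in ENB, 0.46 in LNB and 0.98 in Neuron, and without the filter on low counts edgeR called 3, 5, 3 and 5 members there, against 12.3%, 2.12%, 8.53% and 19.3% of all genes. In ENB 6 of 10 members were higher in both ribosome-bound libraries than in every SVZ control. The share of all genes with such a gap is not given, so this count only describes the members. Without Neuron ribosome-bound replicate 2 edgeR called 4 members higher in Neuron (Fos, Junb, Egr1 and Ier2), against 12.6% of all genes. Without replicate 1 it called 1 member, Npas4, which was lower (-3.30), against 20.8%, and without OB control replicate 2 it called 2 higher (Junb and Ier2), against 25.1%. The precipitates of NSC and ENB also held markers of neighbouring cells. In them 6 markers of striatal projection neurons summed to 2899 to 3433 CPM in NSC and 5132 to 5183 CPM in ENB ribosome-bound mRNA, against 4271 to 5918 CPM in the SVZ control, with 0 of the 6 at 0. In total mRNA they summed to 76.2 to 119 CPM in NSC and 4.01 to 41.3 CPM in ENB, where Drd1 was at 0. Likewise 7 markers of microglia and macrophages summed to 329 to 343 CPM in NSC and 736 to 801 CPM in ENB ribosome-bound mRNA, with 0 of the 7 at 0. They summed to 51.6 to 68.0 CPM in NSC total mRNA, where Tmem119 and C1qa were at 0, to 19.7 to 44.3 CPM in ENB total mRNA and to 369.9 to 619 CPM in the SVZ control. The part of these cells in the members' levels was not tested.

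**Figure D2:**
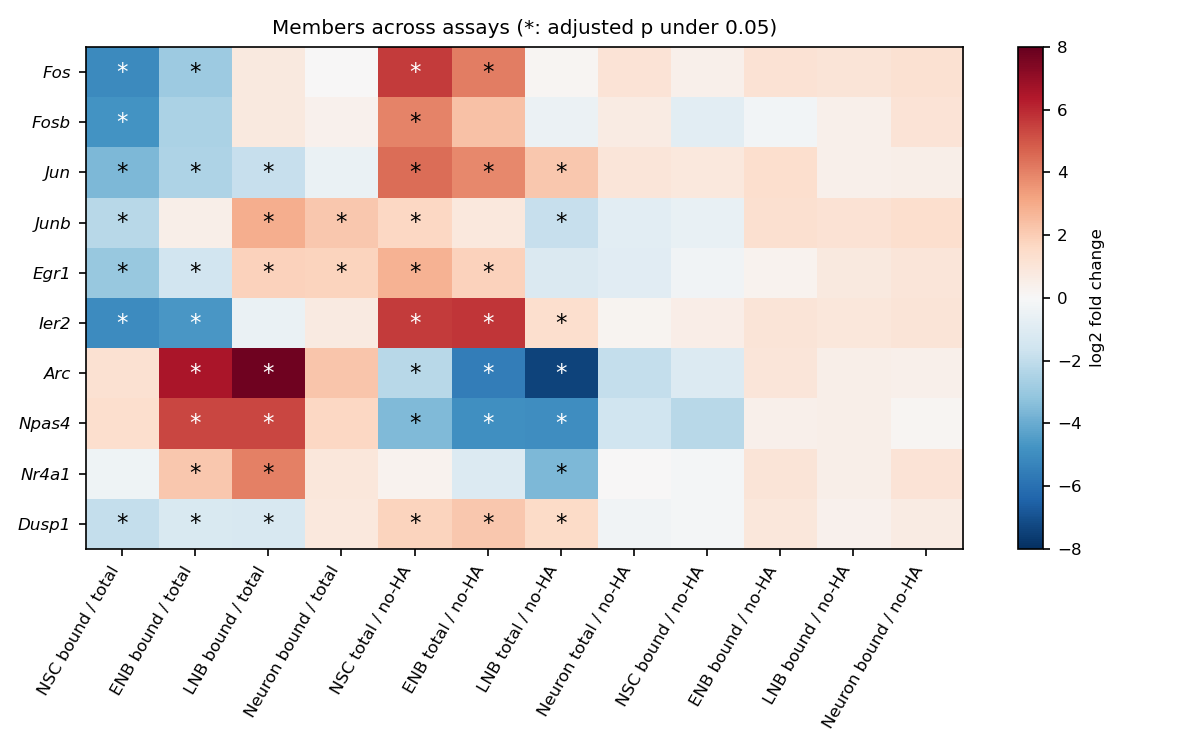
Log2 fold change (colour) of each gene in 12 comparisons between kinds of library, with ribosome-bound mRNA marked bound and an asterisk where the adjusted p was under 0.05. The 4 columns of ribosome-bound mRNA over the no-HA control hold no asterisk, while the columns that involve total mRNA of NSC, ENB and LNB hold 7 to 9 each.

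Among the AP-1 subunits, which pair as Fos and Jun proteins to bind DNA, Fos showed the widest gap between kinds of library. In NSC it stood at 48.2 and 24.6 CPM in ribosome-bound mRNA, against 1083, 1721 and 866 CPM in total mRNA. The log2 fold change was -5.09 ± 0.85 (approximate SE, adjusted p = 0.00031). Here and below, ± after a log2 fold change is its size divided by the square root of the F statistic of its test. In ENB it stood at 65.8 and 61.5 CPM in ribosome-bound mRNA, against 407, 372 and 481 CPM in total mRNA (log2 fold change -2.88 ± 0.75, adjusted p = 0.006). In both SVZ stages every ribosome-bound library was below every total library, although the ENB call ended without either ENB ribosome-bound library (adjusted p up to 0.066). In LNB the ribosome-bound libraries held 602, 465 and 439 CPM and the total libraries 264, 368 and 159.8 CPM. In Neuron the ribosome-bound libraries held 1025 and 124 CPM and the total libraries 962, 337 and 307 CPM. In LNB the ribosome-bound libraries were all above the total ones and in Neuron the groups overlapped, and neither difference was called.

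Fos was likewise low in the SVZ control, at 18.0, 44.3 and 20.6 CPM, and higher in the OB control, at 232, 456 and 77.1 CPM. Total mRNA exceeded the SVZ control by a log2 fold change of 5.57 ± 0.72 in NSC (adjusted p = 4e-06) and 4.08 ± 0.68 in ENB (adjusted p = 5.5e-05). The gap was also present within an index: NSC total replicate 2 held 1721 CPM and SVZ control replicate 2 held 44.3 CPM with one index, and NSC total replicates 1 and 3 held 1083 and 866 CPM and SVZ control replicate 3 held 20.6 CPM with the other. The difference between kinds of library varied over the stages (F = 14.43, adjusted p = 0.00075).

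Fosb, a close relative of Fos whose short splice form accumulates in stimulated neurons, followed the pattern of Fos at a lower level. In NSC it stood at 4.18 and 0.673 CPM in ribosome-bound mRNA, against 42.6, 124 and 29.2 CPM in total mRNA (log2 fold change -4.78 ± 1.26, adjusted p = 0.015), a call that ended without either ribosome-bound library (adjusted p up to 0.137). Its total mRNA of NSC exceeded the SVZ control, at 2.69, 6.24 and 4.15 CPM, by 3.99 ± 1.00 (adjusted p = 0.0038). In ENB it held 4.83 and 2.76 CPM in ribosome-bound mRNA and 30.0, 11.9 and 16.6 CPM in total mRNA. These did not overlap and were not called (adjusted p = 0.091), although DESeq2 (adjusted p = 0.0457), the replicate block (0.0358) and a fit on the compared groups alone (0.0256) called Fosb lower. In the OB stages it ranged from 4.63 to 95.2 CPM in ribosome-bound mRNA and from 8.38 to 78.7 CPM in total mRNA, with overlap and no call in Neuron and in LNB.

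Jun, the main partner of Fos, was lower in ribosome-bound mRNA at 3 stages. In NSC it stood at 25.7 and 49.8 CPM in ribosome-bound mRNA, against 343, 691 and 349 CPM in total mRNA (log2 fold change -3.62 ± 0.59, adjusted p = 0.00026). In ENB the values were 61.7 and 55.2 CPM in ribosome-bound mRNA, against 356, 247 and 262 CPM in total mRNA (-2.46 ± 0.56, adjusted p = 0.0021). In LNB they were 94.5, 96.2 and 101 CPM in ribosome-bound mRNA, against 225, 424 and 304 CPM in total mRNA (-1.86 ± 0.47, adjusted p = 0.0069). The groups did not overlap at these 3 stages, and in Neuron, with 125 and 85.5 CPM in ribosome-bound mRNA and 243, 87.9 and 105 CPM in total mRNA, they did. With the second index as a term the NSC, ENB and LNB calls ended (-2.41, -1.67 and -1.91, adjusted p = 0.105, 0.123 and 0.171). Jun was also the AP-1 gene whose total mRNA exceeded the control at 3 stages, by a log2 fold change of 4.48 ± 0.52 in NSC, 3.87 ± 0.51 in ENB and 2.15 ± 0.47 in LNB, where the SVZ control held 6.06, 30.6 and 29.5 CPM and the OB control 88.8, 101 and 41.1 CPM. In LNB replicate 2, the total library with few astrocyte markers, Jun was highest of its group.

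Junb, which often restrains Jun, changed direction between stages. In NSC it stood at 28.3 and 21.3 CPM in ribosome-bound mRNA, against 81.3, 195 and 65.8 CPM in total mRNA (log2 fold change -2.21 ± 0.69, adjusted p = 0.041), a call that ended without NSC total replicate 2 or without either ribosome-bound library (adjusted p up to 0.214). In LNB it stood at 309, 269.7 and 204 CPM in ribosome-bound mRNA, against 43.6, 36.9 and 13.3 CPM in total mRNA (2.90 ± 0.61, adjusted p = 0.0017). The LNB groups did not overlap, and LNB total mRNA was also below the OB control, at 112, 207 and 44.9 CPM (-1.84 ± 0.58, adjusted p = 0.027), a call that ended without LNB total replicate 3 or OB control replicate 2 (adjusted p up to 0.17). In Neuron it stood at 475 and 123 CPM in ribosome-bound mRNA, against 87.5, 39.8 and 66.7 CPM in total mRNA (2.13 ± 0.63, adjusted p = 0.035). That call ended without ribosome-bound replicate 1 or total replicate 2 or 3 (adjusted p up to 0.44) and with the replicate number as a block (adjusted p = 0.0714). In ENB it held 119.8 and 69.2 CPM in ribosome-bound mRNA and 79.8, 57.3 and 45.5 CPM in total mRNA, which overlapped. The difference varied between stages (F = 11.15, adjusted p = 0.0023), but not past the threshold with the second index as a term (adjusted p = 0.12), and the change of sign itself was not tested.

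Among the other transcription factors, Egr1, a zinc finger factor induced through SRF, was the most abundant member per transcript length in every ribosome-bound and control group, with 72.8 ± 20.7 TPM in NSC, 116 ± 18.5 TPM in ENB, 408 ± 86.4 TPM in LNB and 512 ± 509 TPM in Neuron ribosome-bound mRNA (SD, n = 2, 2, 3 and 2). In total mRNA Fos ranked first in NSC, LNB and Neuron, and Egr1 in ENB. In NSC Egr1 stood at 253 and 170.3 CPM in ribosome-bound mRNA, against 1968, 1743 and 1351 CPM in total mRNA (log2 fold change -3.01 ± 0.57, adjusted p = 0.00098). In ENB the values were 341 and 315 CPM in ribosome-bound mRNA, against 796, 897 and 869 CPM in total mRNA (-1.54 ± 0.53, adjusted p = 0.031), a call that ended without any 1 of the 5 libraries (adjusted p up to 0.164). Ribosome-bound mRNA was thus lower in both SVZ stages, with no overlap.

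In LNB Egr1 stood at 1215, 1011 and 733 CPM in ribosome-bound mRNA, against 263, 351 and 134 CPM in total mRNA (log2 fold change 1.83 ± 0.46, adjusted p = 0.0069). In Neuron it stood at 1886 and 349 CPM in ribosome-bound mRNA, against 305, 252 and 368 CPM in total mRNA (1.78 ± 0.49, adjusted p = 0.026). The LNB groups did not overlap, whereas the Neuron groups did, and the Neuron call rested on ribosome-bound replicate 1 (adjusted p = 0.887 without it). The Neuron call also ended without total replicate 1 or 2 and with the replicate number as a block (adjusted p = 0.0628). The difference varied between stages (F = 21.83, adjusted p = 0.00011), and the change of sign itself was not tested. The SVZ control held 214, 341 and 235 CPM and the OB control 521, 987 and 286 CPM, and total mRNA exceeded the SVZ control by 2.78 ± 0.48 in NSC and 1.86 ± 0.46 in ENB (adjusted p = 0.00011 and 0.0028).

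Npas4, a factor that in neurons responds to calcium influx and regulates inhibitory synapses, was low in total mRNA before the Neuron stage, at no more than 4.96 CPM. In ENB it stood at 54.1 and 34.4 CPM in ribosome-bound mRNA, against 0.162, 0 and 2.37 CPM in total mRNA (log2 fold change 5.37 ± 1.18, adjusted p = 0.0015). In LNB it stood at 106, 109 and 74.7 CPM in ribosome-bound mRNA, against 2.65, 3.32 and 0 CPM in total mRNA (5.35 ± 1.12, adjusted p = 0.0017). Both gaps held without any single library. With the second index as a term the ENB call held (adjusted p = 0.0465), while the LNB call ended (4.73, adjusted p = 0.122). The SVZ control held 20.2, 40.3 and 34.5 CPM and the OB control 74.4, 98.8 and 47.8 CPM. Total mRNA was lower than these controls by a log2 fold change of -3.51 ± 1.04 in NSC, -4.89 ± 1.12 in ENB and -5.00 ± 1.10 in LNB (adjusted p = 0.012, 0.0015 and 0.0023), and the NSC call ended without NSC total replicate 2 (adjusted p = 0.0535). NSC held 10.1 and 3.50 CPM in ribosome-bound and 2.47, 0.443 and 4.96 CPM in total mRNA, and Neuron held 153 and 7.21 CPM in ribosome-bound and 8.08, 41.4 and 22.1 CPM in total mRNA. Neither of these stages was called.

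Nr4a1, an orphan nuclear receptor, was high in total mRNA only in Neuron. In LNB it stood at 558, 337 and 206 CPM in ribosome-bound mRNA, against 11.0, 17.7 and 34.2 CPM in total mRNA (log2 fold change 4.01 ± 0.83, adjusted p = 0.0015). In ENB it stood at 148 and 89.0 CPM in ribosome-bound mRNA, against 36.0, 5.77 and 29.0 CPM in total mRNA (2.16 ± 0.82, adjusted p = 0.05), a call just inside the threshold that ended without ENB total replicate 2 or 3 or either ribosome-bound library (adjusted p up to 0.212) and with the replicate number as a block (adjusted p = 0.0803). The groups did not overlap in either neuroblast stage. In Neuron it held 1031 and 89.2 CPM in ribosome-bound mRNA and 214, 282 and 342 CPM in total mRNA, so that 1 ribosome-bound library lay above and 1 below all total libraries. In NSC it held 77.9 and 24.4 CPM in ribosome-bound mRNA and 57.4, 97.9 and 36.9 CPM in total mRNA, which overlapped. LNB total mRNA was below the OB control, at 218, 533 and 70.4 CPM, by -3.62 ± 0.82 (adjusted p = 0.0028).

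Among the effectors, Arc, which encodes a capsid-like protein that acts at dendritic synapses, had the largest difference of any member. In LNB it stood at 596, 525 and 478 CPM in ribosome-bound mRNA, against 4.41, 1.86 and 0 CPM in total mRNA (log2 fold change 7.78 ± 0.88, adjusted p = 2.2e-06). In ENB it stood at 315 and 216 CPM in ribosome-bound mRNA, against 2.11, 3.58 and 2.13 CPM in total mRNA (6.54 ± 0.85, adjusted p = 5.6e-06). The neuroblast groups lay far apart, and both calls held without any single library and with the second index as a term. In NSC it held 72.0 and 47.9 CPM in ribosome-bound mRNA and 35.3, 24.1 and 17.2 CPM in total mRNA, with no overlap but no call. In Neuron it held 875 and 147 CPM in ribosome-bound mRNA and 39.2, 82.9 and 193 CPM in total mRNA, which overlapped.

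Arc in the no-HA controls held 57.4, 196 and 141 CPM in SVZ and 327, 676 and 203 CPM in OB. Both ENB ribosome-bound libraries lay above every SVZ control, while the NSC ones lay within or below their range. Total mRNA was lower than these by a log2 fold change of -2.25 ± 0.67 in NSC (adjusted p = 0.013), -5.52 ± 0.80 in ENB (adjusted p = 1.1e-05) and -7.42 ± 0.87 in LNB (adjusted p = 2.9e-06), and the NSC call ended without NSC total replicate 3 or SVZ control replicate 2 (adjusted p up to 0.0617). The LNB and ENB levels in total mRNA were below every other group, and the mean over stages of ribosome-bound over total mRNA was 4.43 ± 0.39 (adjusted p = 6.3e-09).

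Ier2, a small protein induced by growth factors and stress, had the reverse pattern of Arc in the SVZ. In NSC it stood at 5.78 and 7.94 CPM in ribosome-bound mRNA, against 179, 308 and 184 CPM in total mRNA (log2 fold change -5.04 ± 0.58, adjusted p = 3.9e-06). In ENB it stood at 10.3 and 10.6 CPM in ribosome-bound mRNA, against 259.5, 216 and 238 CPM in total mRNA (-4.67 ± 0.57, adjusted p = 2.2e-06). The SVZ control lay below each of these precipitates, at 4.71, 5.12 and 5.18 CPM, without a call between them. Total mRNA exceeded this control by 5.58 ± 0.50 in NSC and 5.73 ± 0.51 in ENB (adjusted p = 3.4e-08 and 1.6e-08). These 4 calls held without any single library and with the second index as a term. In LNB the ribosome-bound libraries held 78.2, 72.2 and 60.3 CPM and the total libraries 76.3, 142 and 51.7 CPM, and in Neuron the ribosome-bound libraries held 114 and 38.1 CPM and the total libraries 50.2, 48.3 and 33.5 CPM. LNB total mRNA exceeded the OB control, at 43.2, 59.1 and 14.4 CPM, by 1.33 ± 0.41 (adjusted p = 0.024) with overlap, a call that ended without LNB total replicate 2 or OB control replicate 1 or 3 (adjusted p up to 0.175). Ribosome-bound and total mRNA overlapped in both OB stages, and the variation of the difference over stages had the smallest adjusted p of the members (F = 35.85, adjusted p = 9.5e-06).

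Dusp1, a phosphatase that shuts down the MAP kinases, ranged from 37.4 to 129 CPM in ribosome-bound mRNA of NSC, ENB and LNB, against 119 to 314 CPM in total mRNA, with no overlap within a stage. The log2 fold change was -1.88 ± 0.46 in NSC, -1.25 ± 0.45 in ENB and -1.31 ± 0.39 in LNB (adjusted p = 0.0095, 0.039 and 0.021). The ENB call ended without any 1 of its 5 libraries (adjusted p up to 0.267), the LNB call without 4 of its 6 (up to 0.096) and the NSC call without either ribosome-bound library (up to 0.101). Total mRNA exceeded the control by 1.78 ± 0.40 in NSC, 2.18 ± 0.40 in ENB and 1.54 ± 0.39 in LNB (adjusted p = 0.0015, 0.00019 and 0.0068), and the LNB call ended without OB control replicate 3 (adjusted p = 0.0573). In Neuron Dusp1 held 210 and 65.1 CPM in ribosome-bound mRNA and 64.9, 68.4 and 88.5 CPM in total mRNA.

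**Figure D3:**
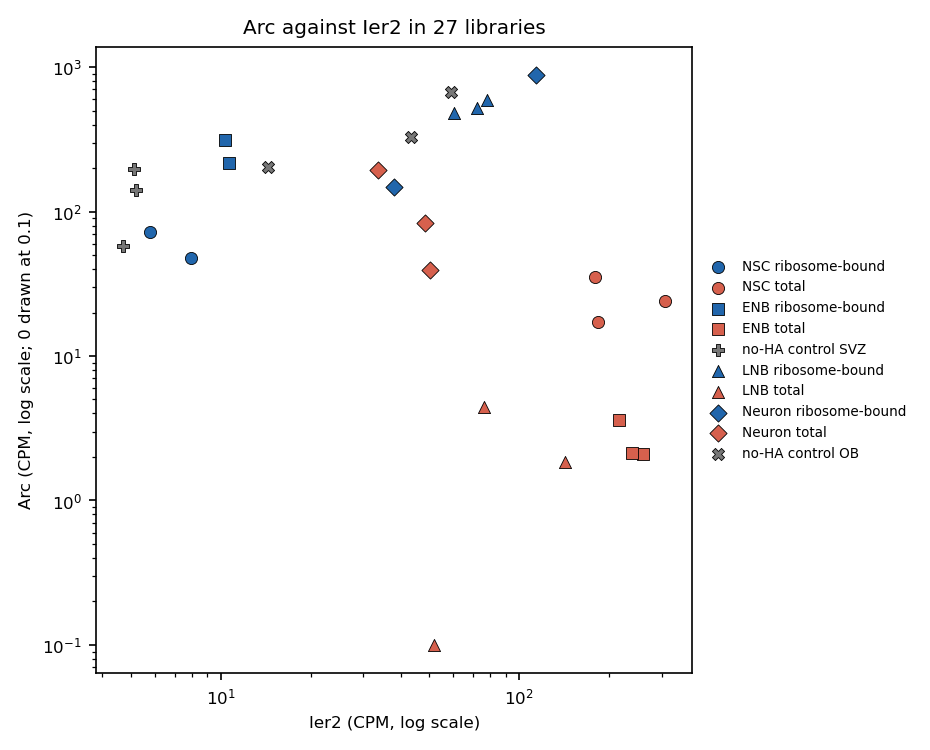
Arc against Ier2 in CPM on log axes, 1 point for each of 27 libraries, coloured by kind of library. Total libraries of NSC, ENB and LNB lie at the lower right, ribosome-bound and control libraries of the SVZ at the upper left, and the precipitates of the OB at the top, with 2 of the 3 Neuron total libraries below all of them.

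Over the group means of all kinds of library, some members formed sets that moved together. Over the 10 group means of log2 CPM, as a description with no test, the Pearson correlation was 0.96 between Fos and Fosb, 0.93 between Fos and Ier2, 0.93 between Jun and Ier2 and 0.86 between Fos and Jun. It was 0.95 between Arc and Npas4, 0.88 between Arc and Nr4a1 and 0.85 between Npas4 and Nr4a1. Across the sets it was -0.19 between Fos and Arc, -0.60 between Jun and Arc and -0.46 between Ier2 and Arc. Junb lay between the sets, at 0.56 with Fos and 0.61 with Arc. Egr1 correlated at 0.77 with Fos and 0.09 with Arc, and Dusp1 at 0.69 with Fos and -0.60 with Arc. Among the 15 precipitated libraries alone Fos and Arc correlated at 0.90. Among the 12 total libraries alone Fos and Arc correlated at 0.42, Jun and Arc at -0.49 and Ier2 and Arc at -0.39. There Fos correlated at 0.88 with Fosb, but at 0.5 with Jun and with Ier2, near its value with Arc. Groups share tissue, kind of library and in part the index, so these points are not independent. Of all other genes tested, Ptpn21 (0.936), Nop2 (0.910), Papola (0.909), Adpgk (0.907) and Atf6b (0.902) were most like Fos over the 10 group means. Bid (0.944), Cc2d1a (0.924), Epb41l4a (0.922), Ogg1 (0.922) and Fam118a (0.917) were most like the mean of the members.

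Across stages in total mRNA, the share of members called was near that of all genes at the first step and above it at the later ones. Between ENB and NSC 1 of 10 was called, against 10.1% of all genes: Arc was lower in ENB (log2 fold change -3.24 ± 0.87, adjusted p = 0.037), a call that ended without any 1 of the 6 libraries (adjusted p up to 0.125) and with the replicate number as a block (adjusted p = 0.0717). Between LNB and ENB 2 were called, against 3.77% of all genes. Egr1 was lower in LNB by -1.77 ± 0.30 (adjusted p = 0.013), and Ier2 was lower by -1.40 ± 0.33 (adjusted p = 0.041). The Egr1 call ended without ENB replicate 3 or LNB replicate 1 (adjusted p up to 0.0527) and the Ier2 call without any library but LNB replicate 2 (up to 0.15), and without LNB replicates 1 and 3 together 0 members and 0.0383% of all genes were called, which says little about the members.

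Between Neuron and LNB in total mRNA 4 were called, against 14.7% of all genes. Arc was higher in Neuron (log2 fold change 5.48 ± 0.96, adjusted p = 0.0031) and so was Nr4a1 (3.60 ± 0.64, adjusted p = 0.0036). Dusp1 was lower (-1.84 ± 0.28, adjusted p = 0.0013), as was Ier2 (-1.14 ± 0.33, adjusted p = 0.04). Arc, Nr4a1 and Dusp1 kept their calls without any single library, and the Ier2 call ended without 5 of the 6 (adjusted p up to 0.229). Without LNB replicates 1 and 3 all 4 were still called, with log2 fold changes of 5.73 for Arc, 3.91 for Nr4a1, -2.17 for Dusp1 and -1.76 for Ier2. In the Neuron total libraries the 6 bulb interneuron markers summed to 5819 to 10002 CPM, against 539 to 1132 CPM in LNB total.

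In ribosome-bound mRNA members were called at 1 of the 3 steps. Between ENB and NSC edgeR called 0 of 10, against 8.28% of all genes, with 3 at an unadjusted p under 0.05 (Junb, Arc and Npas4) and 2 called by DESeq2 (Arc and Npas4). Between LNB and ENB 2 were called, against 12.9%: Fos was higher in LNB by 3.05 ± 0.76 (adjusted p = 0.014) and Ier2 by 2.83 ± 0.52 (adjusted p = 0.0018). The Fos call ended without either ENB library (adjusted p up to 0.104) and with the second index as a term (adjusted p = 0.161). Replicates 1 and 2 of these groups come from the same animals. With a block for the animal, Fos (3.14, adjusted p = 0.0429) and Ier2 (2.93, adjusted p = 0.00729) were called, against 6.38% of all genes. With the replicate number as a block, which also ties libraries of different animals, 4 were called, against 12.5%, with Fosb (log2 fold change 3.43, adjusted p = 0.0355) and Egr1 (1.87, adjusted p = 0.0368) in addition. Between Neuron and LNB 0 were called by edgeR and by DESeq2, against 4.13% of all genes, with 0 at an unadjusted p under 0.05. The 2 Neuron libraries differed widely, with summed member levels of 5989 and 1032 CPM, and the median log2 fold change of the members was -1.69 without replicate 1, where Npas4 was called lower (-3.75) against 5.81% of all genes, and 0.88 without replicate 2.

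The same contrast of tissues was present without the tag. Between OB and SVZ controls 3 of 10 members were called, against 11.8% of all genes: Fos was higher in OB by 3.18 ± 0.66 (adjusted p = 0.0038), Ier2 by 2.92 ± 0.46 (adjusted p = 0.00038) and Jun by 1.78 ± 0.45 (adjusted p = 0.014), which ended without OB control replicate 2 (adjusted p = 0.0577). All 10 members had a higher mean in OB, and 5 had no overlap. The shares of all genes for these 2 counts are not given. The members also rose and fell together among the precipitates, so they are not separate observations. OB control replicate 3, the only OB control with another index, was the lowest of its group in all 10 members, and without it 7 were called, against 11.7% of all genes. With the second index as a term only Ier2 was called, with a log2 fold change of 1.84, against 10.3% of all genes.

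**Figure D4:**
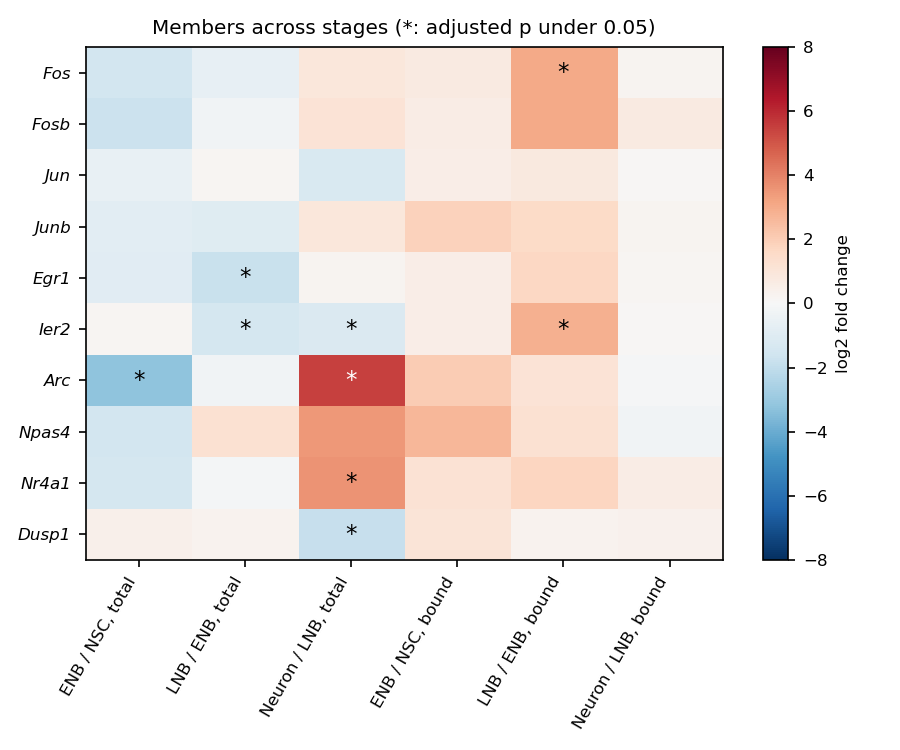
Log2 fold change (colour), later over earlier stage, of each gene in total and in ribosome-bound mRNA (bound), with an asterisk where the adjusted p was under 0.05. Total mRNA holds 7 asterisks, 4 of them between LNB and Neuron, and ribosome-bound mRNA holds 2, both between ENB and LNB.

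Related genes were counted in lists of their own, for the mean of ribosome-bound over total mRNA, where 19.0% of all genes were called higher and 18.3% lower with a median of -0.06. Of 22 other immediate early transcription factors, 7 were higher and 3 lower, with a median of -0.14. Egr4 (log2 fold change 4.33 ± 0.53, adjusted p = 8.6e-07), Fosl2 (2.87 ± 0.42, adjusted p = 1.1e-05) and the orphan receptor Nr4a3 (2.56 ± 0.59, adjusted p = 0.0015) were higher and Klf6 (-1.79 ± 0.27, adjusted p = 1.7e-05) was lower. Of 32 other rapid response effectors and feedback genes, 7 were higher and 10 lower, with a median of -0.28, and Ccn2, a matricellular protein (5.15 ± 0.34, adjusted p = 9.8e-11), and the kinases Sgk1 (1.64 ± 0.21, adjusted p = 1.3e-06) and Plk2 (1.51 ± 0.22, adjusted p = 7.6e-06) had the smallest adjusted p. These lists moved in both directions, as the members did.

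Of 15 neuronal activity effectors, 11 were higher in ribosome-bound mRNA and 0 lower, with a median log2 fold change of 1.87. Rasgrp1, an activator of Ras (4.53 ± 0.26, adjusted p = 6.3e-12), the vesicle protein Syt4 (1.80 ± 0.15, adjusted p = 1.8e-09), the synaptic scaffold gene Homer1 (1.74 ± 0.20, adjusted p = 3.5e-07) and the granule protein Scg2 (2.56 ± 0.43, adjusted p = 5.1e-05) had the smallest adjusted p. By stage 4 were called higher in NSC, 10 in ENB, 8 in LNB and 1 in Neuron. Of all 20683 genes tested, 1756, 3798, 2213 and 795 were called higher at these stages. Neuron markers were higher in the same ribosome-bound libraries: striatal markers summed to 2899 to 3433 CPM in ribosome-bound and 76.2 to 119 CPM in total mRNA of NSC and to 5132 to 5183 CPM and 4.01 to 41.3 CPM in those of ENB, and bulb interneuron markers to 8459 to 8749 CPM and 539 to 1132 CPM in those of LNB. Their part in these counts was not tested. Of 15 heat shock genes tested, 4 were higher and 4 lower, with a median of 0.05, and Hsph1 (1.06 ± 0.15, adjusted p = 6.5e-06) had the smallest adjusted p. Of 29 upstream kinases and transcription factors, 15 were higher and 4 lower, with a median of 0.54, among them the calcium-dependent kinases Camk2a (4.73 ± 0.26, adjusted p = 3.8e-12) and Camk4 (3.71 ± 0.22, adjusted p = 1e-11), the SRF cofactor Mrtfb (3.04 ± 0.17, adjusted p = 8e-12) and the kinase Map2k1 (2.80 ± 0.19, adjusted p = 9.3e-11).

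**Figure D5:**
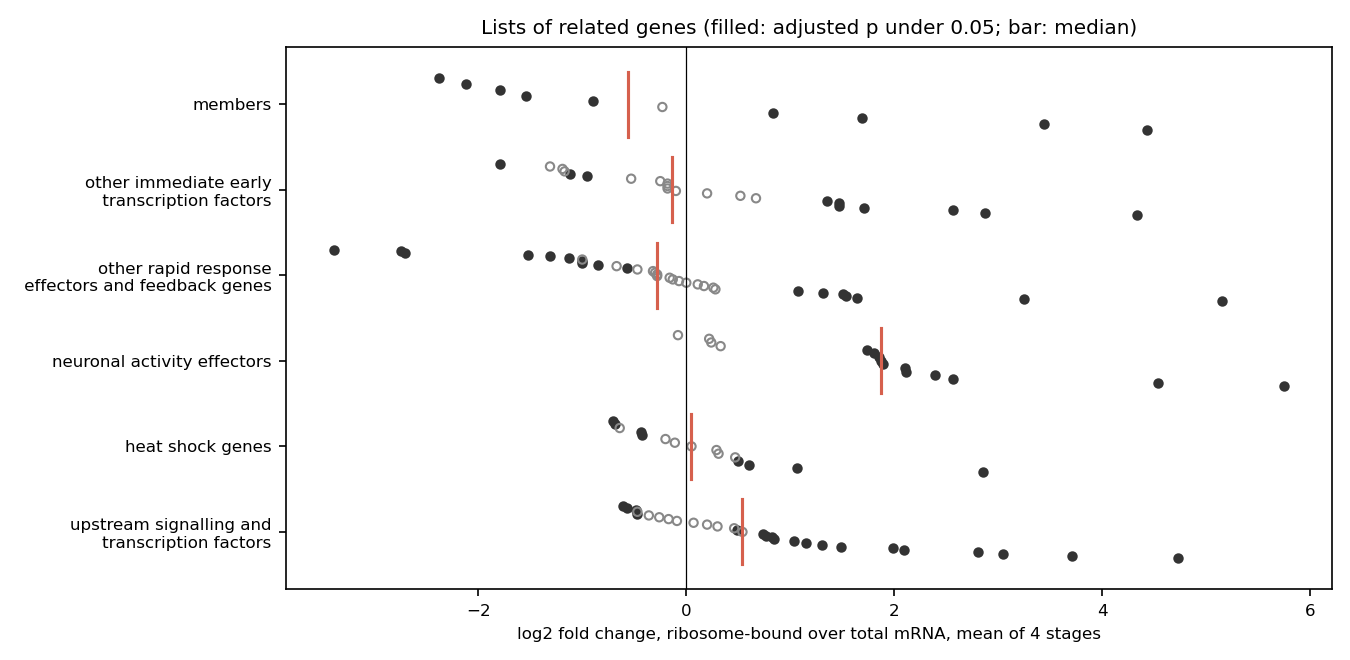
Log2 fold change of ribosome-bound over total mRNA, averaged over the 4 stages, for the 10 members and 5 lists of related genes, 1 point per gene, filled where the adjusted p was under 0.05, with the median as a bar. The neuronal activity effectors are the list with no called gene on the lower side, and the members spread from -2.38 for Ier2 to 4.43 for Arc.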

How the data were processed

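RNA was measured in 27 libraries of 10 groups. The authors deposited raw counts per Ensembl gene as whole numbers, expected counts (estimated, not whole) and TPM values. The tools named in the submitters' processing notes are Bowtie2 2.2.6 and RSEM 1.2.21, with the build GRCm38; which tool made the raw counts is not given in the sources used here. Of 45195 genes, 44548 matched a symbol, and 92 TPM entries without a gene ID were left out.

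The raw counts were tested in R 4.3.3 with edgeR 4.0.16 (TMM, filterByExpr by group, quasi-likelihood F test, Benjamini-Hochberg adjustment, threshold 0.05) in 3 fits: 12 total libraries (17592 genes), 15 precipitated libraries (19066 genes) and all 27 (20683 genes), for 21 comparisons. Levels are CPM with TMM over all 27 libraries, and TPM only where genes are compared with each other. The fits were tested on simulated data. Alternatives were RLE scaling, no filter, DESeq2 1.42.0, rounded expected counts, a replicate block, an animal block, a term for the second index, fits on the compared groups alone and leaving out each library; leaving out LNB total replicates 1 and 3 together was chosen after seeing the data.

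Libraries of a stage are separate mice or pools of mice, but ENB and LNB share animals. Replicates 1 and 2 of ENB and LNB ribosome-bound mRNA are the same animals under the same numbers, per the labels, and in total mRNA shared animals carry different numbers. Deviations from the group means correlated between same-numbered libraries at -0.158 to 0.075 over 18 pairs in total mRNA and -0.025 to 0.117 over 12 pairs in the precipitates. The members, the lists and the rule for named genes (all members, and per list at most 4 genes with the smallest adjusted p in the mean of ribosome-bound over total mRNA) were chosen with earlier results of these data known. The ± values and tests cover the spread between these libraries. The strand setting of the counting is not given in the sources used here, so reads of overlapping antisense genes cannot be told apart.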

Additional observations from a re-analysis of the deposited data

Results flagged for a closer look

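For 9 of the 10 members the difference between ribosome-bound and total mRNA was not the same at all 4 stages, by edgeR's quasi-likelihood interaction test with Benjamini-Hochberg adjustment over 20683 genes, of which 19.8% were called. The adjusted p was 0.00075 for Fos, 0.027 for Fosb, 0.023 for Jun, 0.0023 for Junb, 0.00011 for Egr1, 9.5e-06 for Ier2, 0.00037 for Arc, 0.043 for Nr4a1 and 0.011 for Dusp1. Egr1, Ier2, Fos and Arc kept this call without any single library and with the second index as a term.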

How the results depend on the processing

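Of 77 called member values, 36 kept direction and call in every alternative run and 0 changed direction in any. Of 133 values not called, 57 changed sign and 46 were called in at least 1 alternative. With the second index as a term, members called were 1 for LNB over ENB ribosome-bound, 1 for Neuron ribosome-bound over control, 1 for OB over SVZ control, 3, 4 and 1 for ribosome-bound over total mRNA in NSC, ENB and LNB, 4 in the mean and 4 in the interaction. Without the filter on low counts they were 2 for ENB over NSC total, 5 for ENB over NSC and 8 for LNB over ENB ribosome-bound, 3, 5, 3 and 5 for ribosome-bound over control in NSC, ENB, LNB and Neuron, 10 for OB over SVZ control and 1 for Neuron total over control. DESeq2 called 3 for ENB over NSC total, 2 for ENB over NSC ribosome-bound and 1 for Neuron total over control. RLE scaling called 2 for ENB over NSC total, and expected counts 0. Fits on the compared groups alone called 0 for Neuron ribosome-bound over total and 4 for LNB total over control. Without LNB total replicates 1 and 3, members called were 0 for LNB over ENB total, 2 for LNB ribosome-bound over total and 4 for LNB total over control. In this section shares of all genes are not given beside the member counts. The counts therefore show only how the calls moved with the setting. The cause of these moves was not tested.

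The replicate block called 0 members for ENB over NSC total, 4 for LNB over ENB ribosome-bound and 0 for Neuron ribosome-bound over total mRNA, and the animal block called 2 for LNB over ENB in both kinds. Apart from the numbers that mark shared animals, the numbers were not taken as pairing.

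Leaving out 1 library gave 0 to 0 members for ENB over NSC total, 0 to 2 for LNB over ENB total, 1 to 2 for LNB over ENB ribosome-bound, 0 to 1 for Neuron over LNB ribosome-bound, 0 to 4 for Neuron ribosome-bound over control, 2 to 7 for OB over SVZ control, 4 to 7 for NSC, 4 to 6 for ENB and 0 to 3 for Neuron ribosome-bound over total, and 0 to 1 for Neuron total over control. Over all genes, DESeq2 called over 1.5 times more in 9 of 21 comparisons and the fits without the filter in 3 of 21. The second index term called over 1.5 times fewer in 6 of 21. An example is the mean of ribosome-bound over total mRNA, with 2337 against 7711 genes. Leaving out 1 library called over 1.5 times fewer genes in 46 of 146 runs and more in 2. At these depths only Npas4, Arc and Fosb had libraries below 1 CPM, and there counting error is large.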
